A study of Mus musculus with 6 samples.

Results

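Complex I (NADH:ubiquinone oxidoreductase) is the largest enzyme of the mitochondrial respiratory chain, and the genes of its nuclear subunits were followed here in the left ventricle of mice given 2-methyl-2-thiazoline (2MT), a small thiazoline compound. Members were the genes on probe sets with a single gene symbol that starts with Ndufa, Ndufb, Ndufc, Ndufs or Ndufv, without the assembly factors named Ndufaf. The rule found 36 genes on 41 probe sets, of 19938 genes on 21789 such probe sets. All 36 were bright enough to be tested, among 10547 genes tested, and 0 of the 41 probe sets lay under the floor for dim genes, a log2 signal of 4.345.

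The study compared 3 arrays of a 2MT group with 3 arrays of a saline group, all from left ventricles of C57BL/6 male mice aged 10 weeks with no genetic change named in the labels. The labels give 50 mg/kg of 2MT under the skin and removal of the heart 4 h later; the same text stands on the saline arrays, which their treatment label sets apart. Nothing says that the arrays of a group come from separate animals, so a p-value here reflects how these arrays scatter, which could be technical scatter alone. The stated purpose was to learn how the compound protects the heart.

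Complex I takes electrons from NADH, passes them along iron-sulfur clusters to ubiquinone and pumps protons across the inner mitochondrial membrane. Its peripheral arm holds the N module, where NADH is oxidised, and the Q module, where ubiquinone is reduced, and its membrane arm holds the proton pumps. Heart muscle is packed with mitochondria, and this complex is both a main entry point of electrons for its ATP supply and a known source of reactive oxygen species.

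All 10 cardiomyocyte markers, among them Myh6, Tnnt2 and Myl2, were far above the dim floor, with group means of 11.18 to 13.17. In limma 0 of them passed an adjusted p of 0.05, with 0 also below 0.05 before adjustment. Their median log2 difference, 2MT minus saline, was 0.010. Of 10 fibroblast and 9 macrophage markers 0 passed (0 before adjustment), and of 10 endothelial markers 1, Pecam1, fell, by a difference of -0.33. Before adjustment 3 endothelial markers were below 0.05, and the other 2, Kdr (0.24) and Emcn (0.20), had higher means in 2MT. Of 4 atrial genes, Nppa, which ventricles can also express, read 9.91 to 10.59 in saline and 10.23 to 10.51 in 2MT. The atrial genes Myl7 and Sln lay under the dim floor by their mean, although Myl7 read 4.95 on saline 2, where Myl4 read 6.47 against 4.80 to 5.13 on the other arrays. The erythrocyte marker Alas2 read 7.07 on saline 3 and 5.15 to 5.76 on the other 5 arrays. Bpgm read 6.77 on saline 3 and 6.26 to 6.40 elsewhere, and these were the 2 tested of 8 listed. Slc4a1, a listed marker under the dim floor, read 4.08 on saline 3, 4.07 on saline 1 and 3.61 to 3.97 on the others. The part of these markers in the results was not tested. In a whole ventricle, fewer cells of a type and less RNA per cell cannot be told apart.

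Transcripts of complex I differed little between the groups. Of the 36 members 1, Ndufb11, fell and 0 rose at an adjusted p under 0.05, which is 2.78% of members against 4.63% of all genes tested (488 of 10547, with 2.41% lower). At an unadjusted p under 0.05 there were 10 members, or 27.8%, of which 8 were lower and 2 higher in 2MT, against 17.8% of all genes, of which 860 were lower and 1013 higher. The mean was lower in 2MT for 22 members (61.1%), against 48.1% of all genes tested. The median log2 difference was -0.033 for the members and 0.0033 for all genes tested. The shares over all genes, here and below, are not matched for brightness. With a stricter floor of 5.65, which all 36 members passed, 1368 of 6412 genes had an unadjusted p under 0.05 in limma.

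The spread between arrays was small for these genes, which were also brighter than many others. Only 4917 of the 10547 genes tested had a mean signal at or above 6.14, that of the dimmest member. The SD within a group, pooled over both groups, had a median of 0.055 over the members and 0.10 over all genes tested, and the SE of a member's log2 difference ran from 0.039 to 0.080. For the 35 members that did not pass, the 95% intervals reached at most from -0.29 to 0.21, a 1.23-fold lower or 1.15-fold higher level. In 32 of the 36 the whole interval lay within 1.2-fold of no difference. The intervals come from limma and cover only the spread between these 6 arrays.

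**Figure D1:**
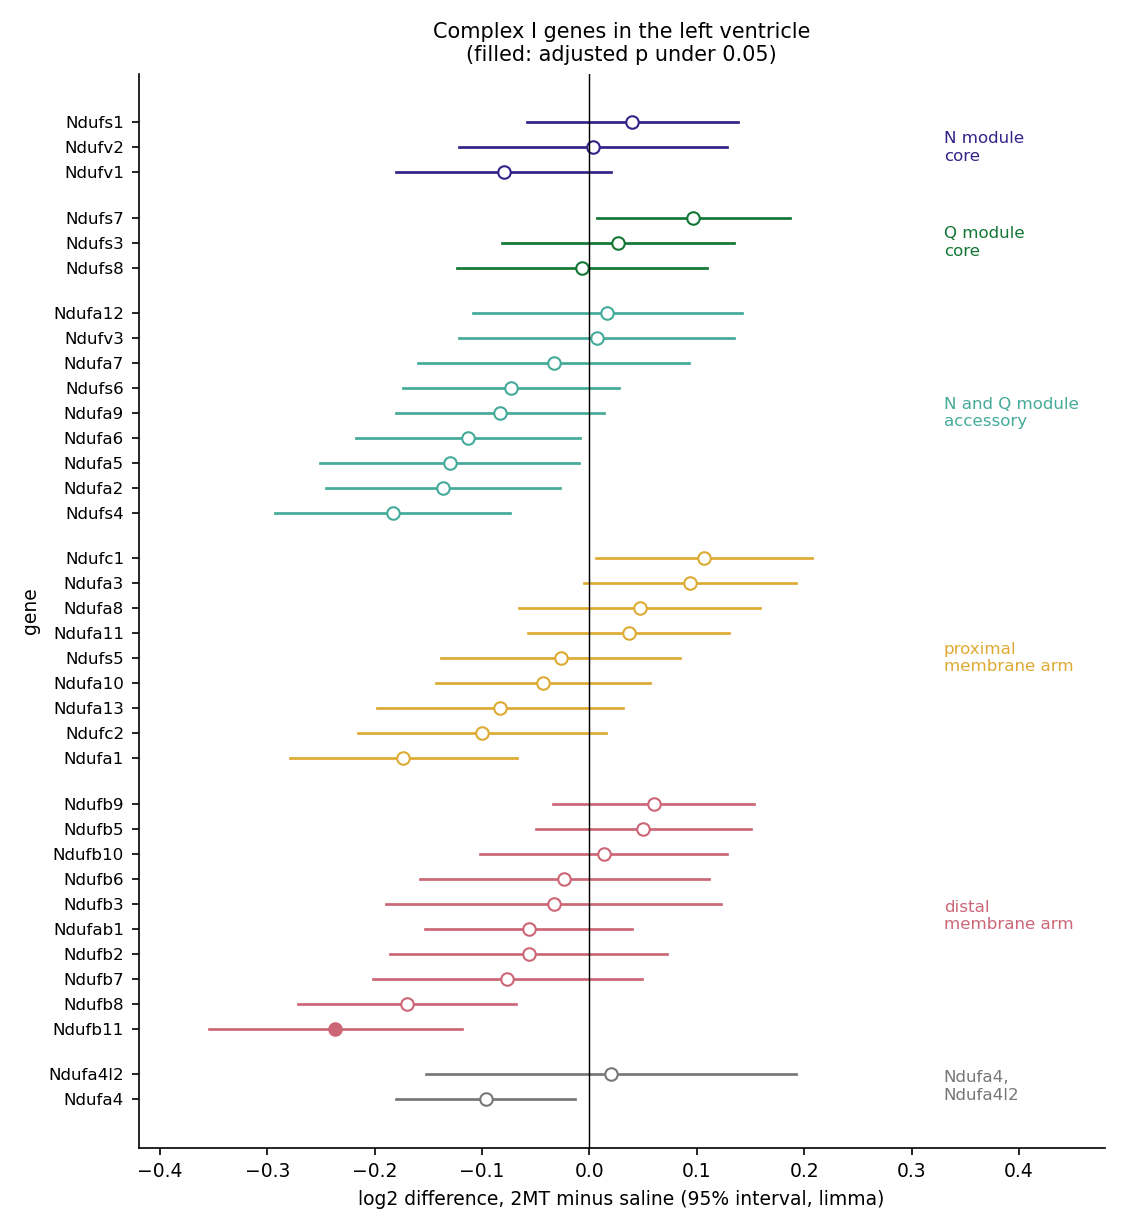
The log2 difference of each of the 36 genes, 2MT minus saline, with its 95% interval from limma, sorted within the parts of the enzyme (3 arrays a group). Ndufb11, the filled point, is the lowest at -0.24, and the highest, Ndufc1, is at 0.11.

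The sequences before the start of Ndufb11 and Ndufa1 are shown because these are the members encoded on the X chromosome and both were among the 4 with the smallest p. They are the 250 bases before the gene's start, 5′ to 3′ on the gene's strand, from RefSeq on GRCm38.p6, at chrX:20617620-20617869 (minus strand) for Ndufb11 and chrX:37191239-37191488 (minus strand) for Ndufa1. Capitals mark a match to any of 5 motifs searched on both strands: the palindromic NRF1 site, ETS (CCGGAAG), YY1 (AAGATGG), ERR (AAGGTCA) and the antioxidant response element (TGACNNNGC).
Ndufb11: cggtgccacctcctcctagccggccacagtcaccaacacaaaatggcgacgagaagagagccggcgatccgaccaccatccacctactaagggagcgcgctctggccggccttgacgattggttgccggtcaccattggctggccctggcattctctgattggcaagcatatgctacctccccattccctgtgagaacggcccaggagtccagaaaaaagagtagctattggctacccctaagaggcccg
Ndufa1: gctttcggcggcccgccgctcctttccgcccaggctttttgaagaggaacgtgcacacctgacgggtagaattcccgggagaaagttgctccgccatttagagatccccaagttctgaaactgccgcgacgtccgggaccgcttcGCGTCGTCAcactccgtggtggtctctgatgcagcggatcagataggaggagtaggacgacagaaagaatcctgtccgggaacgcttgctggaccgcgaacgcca
The stretch of Ndufb11 holds no match, which says only that these letters are not in this window. That of Ndufa1 holds 1 match to the antioxidant response element, on the opposite strand, whose first printed base lies 105 bases before the start.

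A window was found for 32 of the 36 members, and 34 windows of 300 bases (250 before and 50 after a start) could be searched. A YY1 match stood in 7 of them, in each case on the gene's own strand and after the start. Anywhere in the window and on either strand, a match stood in 20.6% of member windows and 7.06% of windows of the genes tested. Of all 32851 windows it stood in 6.34%. A match placed like those of the members stood in 1.3% of all windows. That placement was read from the member matches themselves, so the 1.3% is no independent background. The 7 matches are shown, 30 bases each with the match in capitals, because Ndufb8 and Ndufs4 are among them. These 2 follow Ndufb11 in order of p. Also among the 7 are Ndufc1, Ndufa3 and Ndufs7, whose means were higher in 2MT but did not pass (adjusted p of 0.25, 0.31 and 0.24 in limma).
Ndufb8: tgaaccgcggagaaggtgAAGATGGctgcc
Ndufs4: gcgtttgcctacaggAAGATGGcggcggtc
Ndufs6: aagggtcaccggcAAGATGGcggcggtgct
Ndufa9: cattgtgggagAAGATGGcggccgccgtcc
Ndufs7: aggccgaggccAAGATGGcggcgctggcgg
Ndufa3: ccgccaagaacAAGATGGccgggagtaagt
Ndufc1: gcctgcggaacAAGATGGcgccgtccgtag
The first base of the match lies at base 23 (Ndufc1, Ndufa3) to base 39 (Ndufb8) of the transcript, counted from 1 at the start. The motif contains ATG, the letters of a start codon. Members with this match had lower means in 4 cases and higher means in 3. The other motifs are given as shares of member windows, of windows of the genes tested and of all windows. They were 26.5%, 13.0% and 6.23% for NRF1, whose letters are rich in G and C, and 11.8%, 16.9% and 8.86% for ETS. They were 5.88%, 3.19% and 4.72% for ERR and 23.5%, 14.2% and 12.4% for the antioxidant response element. The ETS share of members thus lay below that of the genes tested and above that of all windows.

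Of the distal membrane arm, the part around the mitochondrially encoded pumps ND4 and ND5, 10 accessory genes were tested. Ndufb11 fell, 0 rose, 7 of the 10 had a lower mean in 2MT, and the median difference was -0.045.

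Ndufb11 encodes a small single-span subunit of this arm, and changes in the human gene are linked to cardiomyopathy. Its log2 signal was 9.76, 9.82 and 9.68 on saline 1, 2 and 3 and 9.60, 9.45 and 9.50 on 2MT 1, 2 and 3. Every 2MT array lay under every saline array. The gene fell by 0.24 ± 0.055 on the log2 scale (SE, limma, adjusted p = 0.024), to 9.52 ± 0.08 from 9.75 ± 0.07 (SD, n = 3), which is 1.18-fold lower, with a 95% interval of -0.35 to -0.12.

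This call was close to the threshold. Without saline 1, saline 2, 2MT 2 or 2MT 3 the adjusted p was 0.079, 0.10, 0.12 and 0.11, without the variance trend it was 0.13 and with every probe set tested it was 0.054, while the difference kept its sign at -0.20 to -0.31 under all 17 alternatives.

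Ndufb8 is a subunit often used on immunoblots as a marker of assembled complex I. It read 9.38, 9.35 and 9.37 on the saline arrays and 9.23, 9.18 and 9.18 on the 2MT arrays, with no overlap and an SD of 0.015 and 0.029. The difference was -0.17 ± 0.05 (SE) and did not pass (adjusted p = 0.057). It passed under cyclic loess (0.041), the stricter dim filter (0.047) and array weights (0.044).

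The other 8 genes of the distal arm showed smaller differences. Ndufb7, a subunit with paired cysteines, was at 8.75, 8.57 and 8.61 in saline and 8.57, 8.59 and 8.54 in 2MT, so that saline 1 alone stood above the rest. Ndufb9, of the LYR family, was at 11.80, 11.80 and 11.93 against 11.90, 11.90 and 11.91, and saline 3 was the highest array. Ndufab1, the mitochondrial acyl carrier protein, which also serves fatty acid synthesis, was at 10.06, 9.99 and 10.04 against 9.95, 9.98 and 9.99. Ndufb2, Ndufb3, Ndufb5, Ndufb6 and Ndufb10 had differences between -0.057 and 0.050, with adjusted p values of 0.64 to 0.93.

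Of the proximal membrane arm, around ND1 and ND2, 9 genes were tested and 0 passed in limma (2 at an unadjusted p under 0.05), with a median of -0.027. Lower and higher means were nearly balanced here, at 5 and 4.

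Ndufa1 encodes a small subunit needed early in assembly of the membrane arm. Its signal was 9.96, 9.93 and 9.88 in saline and 9.69, 9.81 and 9.75 in 2MT, without overlap. The difference was -0.17 ± 0.05 (SE, adjusted p = 0.062). Without saline 3, the array with the high Alas2 and Bpgm signals, it was -0.20 and passed in limma (adjusted p = 0.047). Whether erythrocytes had a part in it was not tested.

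Ndufc1 and Ndufa3 are small accessory subunits with a membrane span, and both had higher means in 2MT. Ndufc1 was at 10.32, 10.22 and 10.33 in saline and 10.41, 10.36 and 10.42 in 2MT, a difference of 0.11 ± 0.05 (SE, adjusted p = 0.25). Ndufa3 was at 9.97, 10.04 and 10.03 against 10.15, 10.10 and 10.07, a difference of 0.093 ± 0.046 (adjusted p = 0.31). In both, all 2MT arrays lay above all saline arrays, yet neither passed.

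Ndufc2, a subunit of the ND2 part, was at 10.83, 10.71 and 10.80 in saline and 10.77, 10.58 and 10.69 in 2MT, with overlap. Ndufa13, also known as a cell death regulator, was lower without overlap, at 8.28, 8.35 and 8.33 against 8.26, 8.21 and 8.24 (adjusted p = 0.45). Ndufa8, Ndufa10, Ndufa11 and Ndufs5 had differences between -0.043 and 0.047.

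The accessory subunits of the N and Q modules counted 9 genes, of which 0 passed in limma, 4 had an unadjusted p under 0.05 and 7 had a lower mean in 2MT. Their median of -0.083 was the lowest of the parts of the enzyme, and those 4 were all lower. The parts were not tested against each other.

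Ndufs4 binds late in assembly and stabilises the N module, and mice that lack it develop a mitochondrial encephalopathy. It read 10.05, 9.94 and 10.02 in saline and 9.81, 9.76 and 9.89 in 2MT, with no overlap. The difference was -0.18 ± 0.05 (SE, adjusted p = 0.058), and the adjusted p was below 0.05 in 4 of 17 alternatives, among them cyclic loess (0.034), quantile normalization (0.047) and the stricter dim filter (0.0495).

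Ndufa2, a subunit with a thioredoxin-like fold, was at 9.44, 9.46 and 9.44 in saline and 9.34, 9.23 and 9.36 in 2MT (adjusted p = 0.16). Ndufa6, which holds an acyl carrier protein to the Q module, was at 9.74, 9.73 and 9.69 against 9.63, 9.54 and 9.65 (adjusted p = 0.24). Ndufa5 was at 10.33, 10.22 and 10.18 against 10.16, 10.01 and 10.17 (adjusted p = 0.24). The groups did not overlap in any of these 3 genes, and in each of them 2MT 2 was the lowest array. Ndufa7, Ndufa9, Ndufa12, Ndufs6 and Ndufv3 had differences between -0.083 and 0.017.

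The catalytic core carries the flavin and the iron-sulfur clusters, and 6 of the members belong to it. None of the 6 passed an adjusted p of 0.05 in limma, with 1 at an unadjusted p under 0.05.

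In the N module, Ndufv1, which binds NADH and the flavin, was at 10.41, 10.34 and 10.28 in saline and 10.26, 10.26 and 10.27 in 2MT, just without overlap (adjusted p = 0.40). Ndufv2, an iron-sulfur subunit beside it, was at 10.49 and 10.57 on saline 1 and 3, with saline 2 between them, against 10.61, 10.38 and 10.58 (adjusted p = 0.99). Ndufs1, the large subunit that carries several clusters, was at 10.35, 10.45 and 10.41 against 10.46, 10.40 and 10.47 (adjusted p = 0.72). Within the 2MT group 2MT 2 was the lowest array for Ndufv2 and Ndufs1, and in these the groups overlapped.

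In the Q module, Ndufs7, which holds the last cluster before ubiquinone, was at 11.21, 11.18 and 11.23 in saline and 11.33, 11.33 and 11.25 in 2MT. It was higher in 2MT without overlap, by 0.097 ± 0.042 (SE, adjusted p = 0.24). Ndufs3, a structural core subunit, was at 10.43, 10.41 and 10.55 against 10.43, 10.52 and 10.52, and Ndufs8, an iron-sulfur subunit, at 9.80, 9.86 and 9.99 against 9.86, 9.92 and 9.85. The sign of Ndufs8 and of Ndufv2 depended on the arrays used, with differences of -0.048 to 0.047 and of -0.040 to 0.075 when each array was left out.

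The name rule also takes 2 genes that are no subunits of the mature enzyme. Ndufa4 is now assigned to cytochrome c oxidase, and it read 12.01, 11.99 and 12.01 in saline and 11.93, 11.86 and 11.93 in 2MT, lower without overlap by a difference of -0.097 ± 0.039 (SE, adjusted p = 0.20). Ndufa4l2, a related gene induced in hypoxia, read 6.22, 6.09 and 6.08 against 6.23, 6.06 and 6.16 (adjusted p = 0.93). Without these, 34 genes remained, with 21 lower means and the same median of -0.033.

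**Figure D2:**
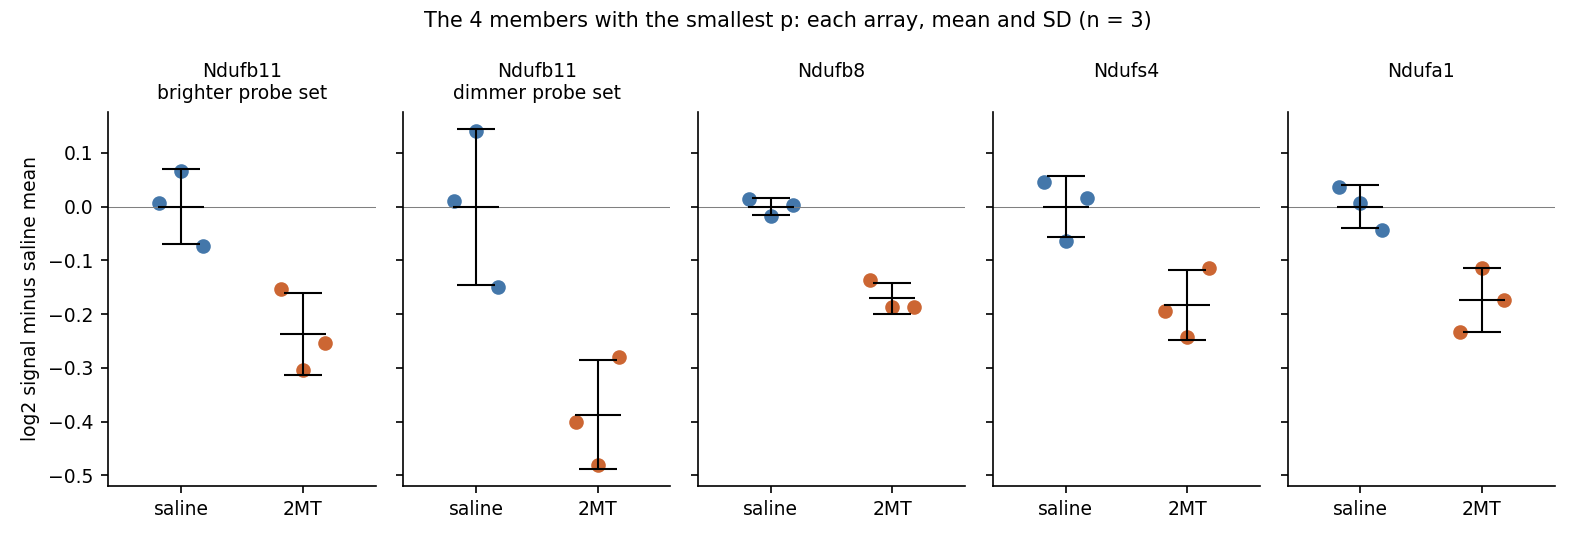
Log2 signal of each array minus the gene's saline mean for the 4 genes with the smallest p, with both probe sets of Ndufb11 (points are arrays, bars mean and SD, n = 3). In all 5 panels the 2MT arrays lie below the saline arrays.

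Over all members, the groups did not overlap in 13 genes (36.1%), 10 lower and 3 higher in 2MT, against 21.1% of all genes tested, where 1060 were lower and 1169 higher. The arrays did not contribute evenly. The array 2MT 2 was alone the lowest of the 6 for 16 members, against 1 to 6 for each other array, and saline 1 was alone the highest for 12. The median over members of the deviation from each gene's mean was 0.046, -0.014 and 0.033 on saline 1, 2 and 3 and 0.0033, -0.058 and -0.0092 on 2MT 1, 2 and 3, so that the groups overlapped. Without 2MT 2 the median difference of the members went from -0.033 to -0.020 and 0 of them passed in limma (5 at an unadjusted p under 0.05).

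A second probe set was present for 5 members, and the one with the higher mean stood for the gene. For Ndufb11 the second read 9.14, 9.27 and 8.98 in saline and 8.73, 8.65 and 8.85 in 2MT, a difference of -0.39 ± 0.08 (SE). When all probe sets were tested on their own, this second one passed (adjusted p = 0.029) and the first did not (adjusted p = 0.054). With the mean of both, Ndufb11 was lower by a difference of -0.31 (adjusted p = 0.0090). The annotation lists 3 accessions for the first and 2 for the second, and both of the latter are among the former, so the transcripts they read cannot be told apart by name, nor from near-identical copies of the gene.

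For the other 4 genes the accession lists of both probe sets were identical. The differences of the first and second were 0.11 and 0.093 for Ndufc1, 0.027 and 0.050 for Ndufs3, 0.037 and -0.010 for Ndufa11, and -0.057 and -0.0067 for Ndufab1. Ndufc1 and Ndufs3 thus had a higher mean in 2MT on both probe sets, and Ndufa11 changed sign between them. None of these 8 probe sets passed when tested on its own, with adjusted p values of 0.28 to 0.96.

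**Figure D3:**
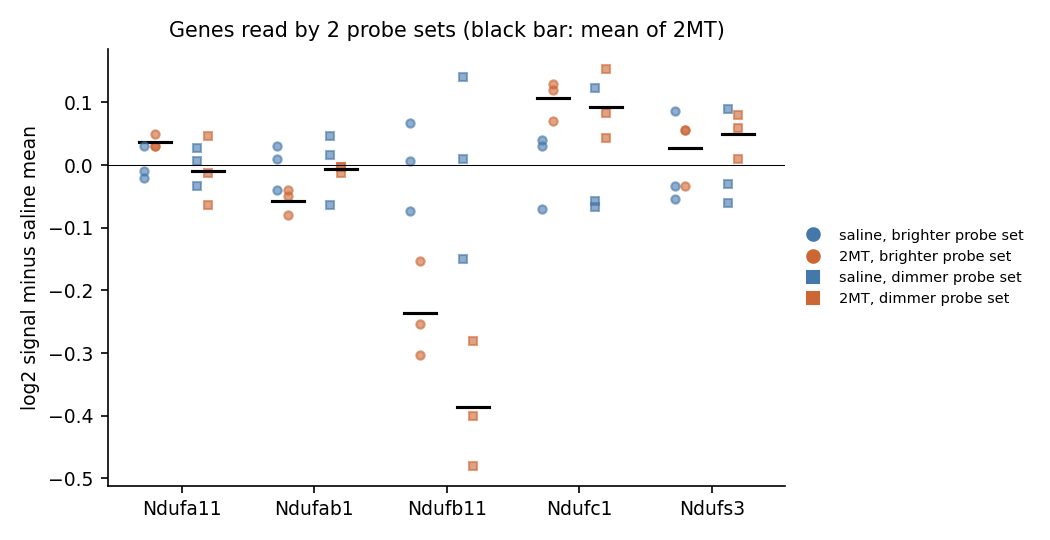
Log2 signal of each array minus the probe set's saline mean for the 5 genes read by 2 probe sets, circles for the one with the higher mean and squares for the other (3 arrays a group). For Ndufb11 the 2MT means are at -0.24 and -0.39, and for the other genes all lie within 0.11 of 0.

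Complex I is built with the help of assembly factors, chaperone-like proteins that leave the finished enzyme. Of 16 tested, 0 passed in limma (2 at an unadjusted p under 0.05), 8 had a lower and 8 a higher mean, and the median was 0.0017. Tmem126a was at 8.99, 9.01 and 9.10 in saline and 9.17, 9.23 and 9.23 in 2MT (adjusted p = 0.069), and Ndufaf7, a mitochondrial methyltransferase, was at 6.48, 6.46 and 6.68 against 6.22, 6.34 and 6.42 (adjusted p = 0.19). Nubpl, which delivers iron-sulfur clusters, lay under the dim floor at 3.13 ± 0.22 in saline and 3.17 ± 0.11 in 2MT (SD, n = 3). The 7 subunits encoded by mitochondrial DNA could not be analysed, because none of their listed symbols stood on a probe set with a single symbol.

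The other enzymes of the chain were counted in the same way. Of 9 tested genes of complex III, 1, Uqcr11, fell and 0 rose, with a median of -0.077. Of 13 genes of complex IV, 1, Cox4i1, fell and 0 rose, with a median of -0.057. At an unadjusted p under 0.05 in limma there were 4 genes of complex III and 2 of complex IV, against 17.8% of all genes. Of 4 genes of complex II and 15 of ATP synthase 0 passed in limma (0 and 6 at an unadjusted p under 0.05), with medians of -0.0083 and -0.010. The 6 of ATP synthase lay in both directions, among them Atp5c1 (0.14) and Atp5k (-0.18). Differences between the complexes were not tested.

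Uqcr11, a small accessory subunit of complex III, was at 9.54, 9.50 and 9.32 in saline and 9.21, 9.17 and 9.21 in 2MT, a fall of 0.26 ± 0.06 (SE, adjusted p = 0.023). Its adjusted p was 0.10 without saline 1, 0.090 without saline 2, 0.060 without 2MT 1, 0.097 without 2MT 2, 0.083 without 2MT 3 and 0.12 without the variance trend. It was 0.056 with the mean of its probe sets (a difference of -0.22) and 0.054 with every probe set tested, and 9 of 17 alternatives kept the call. Cox4i1, the regulatory subunit of complex IV that binds ATP, was at 10.55, 10.48 and 10.44 against 10.32, 10.25 and 10.32 (adjusted p = 0.029), and passed in 9 of 17 alternatives. It did not pass when any array but saline 3 was left out, at 0.062 (2MT 1) to 0.13 (2MT 2), without the variance trend (0.18), with median centring (0.051) or with every probe set tested (0.056).

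Of the PGC-1 coactivators, which drive transcription of respiratory chain genes, Ppargc1b and Ppargc1a were higher in 2MT. Ppargc1b rose by 0.76 ± 0.09 (SE, adjusted p = 1.5e-04), from 5.51, 5.78 and 5.77 in saline to 6.46, 6.47 and 6.41 in 2MT. Ppargc1a rose by 0.51 ± 0.07 (adjusted p = 9.0e-04), from 9.25, 9.59 and 9.41 to 9.92, 9.86 and 9.99. Both passed under all 17 alternatives.

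Of 13 tested regulators these 2 rose and 0 fell, with a median of 0.13. Nrf1, whose motif stands in 26.5% of the member windows, was at 4.78 ± 0.05 in saline and 4.69 ± 0.16 in 2MT (SD, n = 3, adjusted p = 0.73), near the dim floor. Gabpa, an ETS factor, was at 7.31 ± 0.12 and 7.46 ± 0.14 (adjusted p = 0.34), and Yy1 at 6.71 ± 0.01 and 6.70 ± 0.02 (adjusted p = 0.98). Esrra, an orphan nuclear receptor, and its relative Esrrg differed by 0.0033 and 0.013, and Ppara, the fatty acid receptor, by 0.20 ± 0.08 (SE, adjusted p = 0.17). Tfam, Tfb1m, Tfb2m and Gabpb1 had differences of 0.053 to 0.14 and Pprc1 one of -0.097, with adjusted p values of 0.29 to 0.84.

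**Figure D4:**
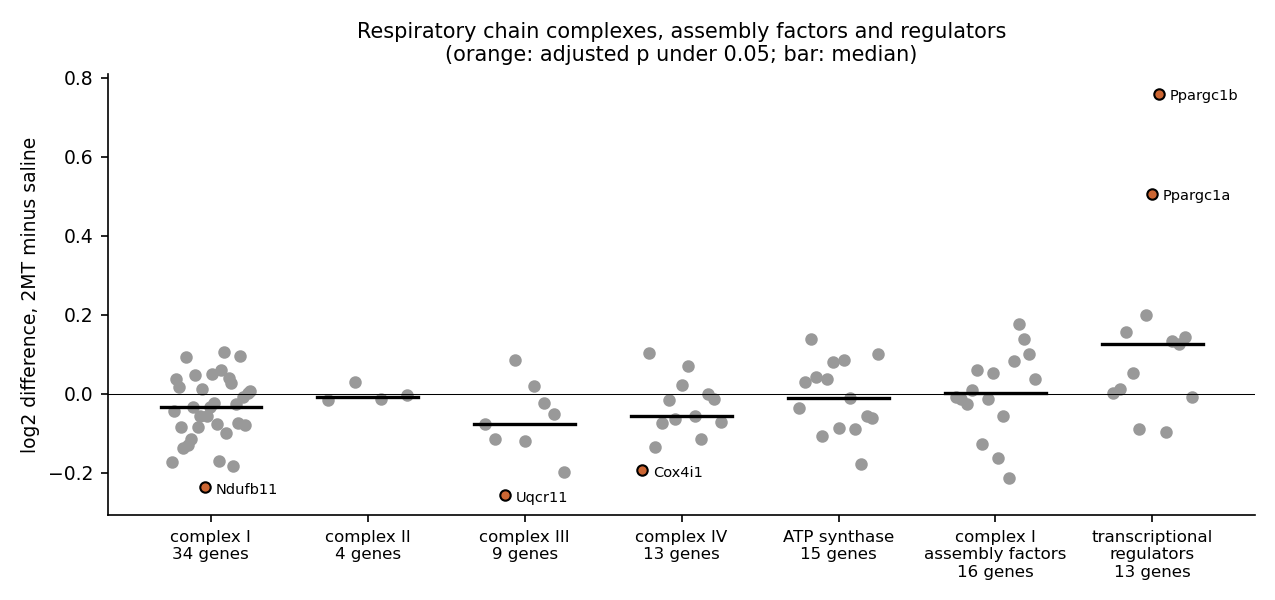
The log2 difference of each gene, 2MT minus saline (3 arrays a group), for complex I without Ndufa4 and Ndufa4l2, the other complexes, the assembly factors and the regulators, with the median as a bar. Orange points passed an adjusted p of 0.05: Ndufb11, Uqcr11 and Cox4i1 lower, and Ppargc1b (0.76) and Ppargc1a (0.51) higher.

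**Figure D5:**
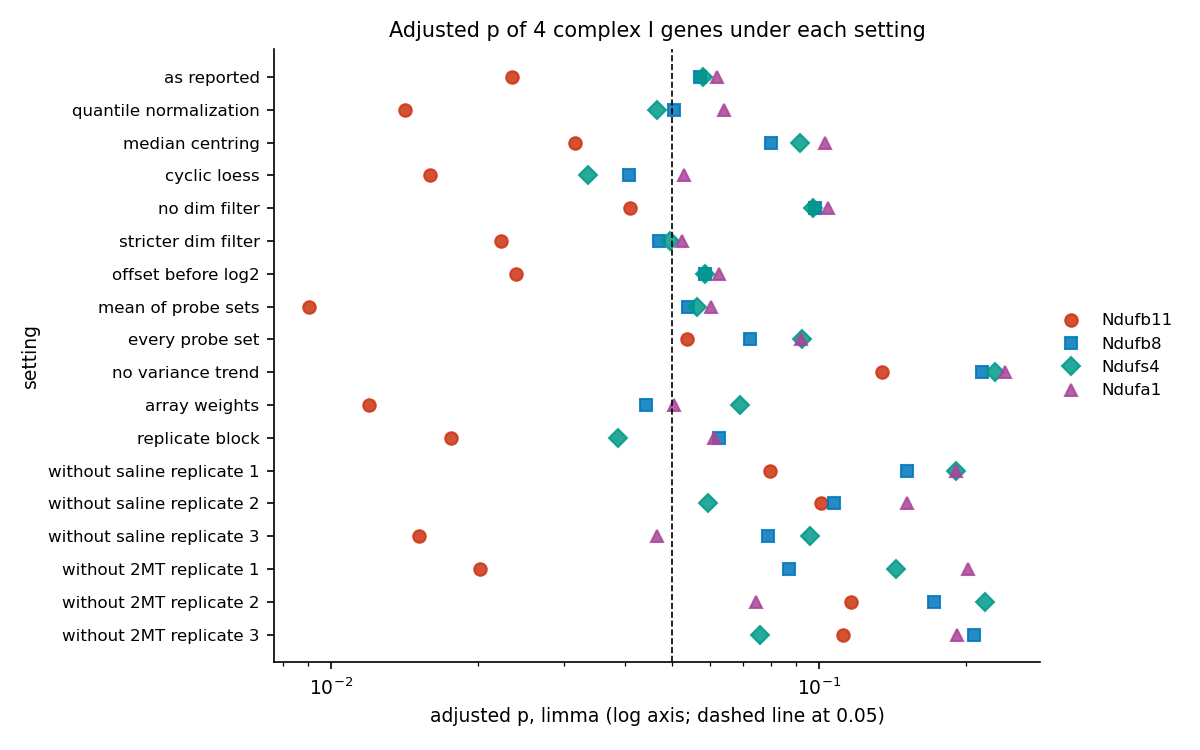
Adjusted p of Ndufb11, Ndufb8, Ndufs4 and Ndufa1 in limma as reported and under 17 alternatives, on a log axis. Ndufb11 lies left of the dashed line at 0.05 in 11 alternatives, Ndufs4 in 4, Ndufb8 in 3 and Ndufa1 in 1.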

How the data were processed

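Values are those of the deposited table, log2 signals, 1 per probe set and array; the log base was read from their range (0.51 to 13.5), and medians of the 6 arrays lay between 4.32 and 4.37. The authors' normalization is not given in the sources used here, except that MAS5 is named in the submitters' processing notes. No detection calls were used, so signal over background is unknown, and precision is limited by having 6 arrays.

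Probe sets were named by the platform annotation (1621 had several symbols and 5534 none here). The probe set with the highest mean stood for a gene, and genes dimmer than 4.345, the median over all probe sets, were dropped. The fit was limma 3.58.1 in R 4.3.3 (lmFit, eBayes with a variance trend, two-sided), with Benjamini-Hochberg adjustment over all 10547 genes; it was tested on simulated data. An exact permutation test of 3 against 3 cannot go below 0.1. Figures used matplotlib 3.10.9.

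Named with all arrays were called members, the 12 with the smallest p, the catalytic core, Ndufa4, Ndufa4l2 and genes with 2 probe sets; of other lists, called genes, up to 3 of smallest p, and the regulators. Ndufb7, Ndufb9 and Ndufa13 were added after their values were seen. Members and lists were chosen with earlier results of these data known. All 36 members matched RefSeq by Entrez ID. Alternatives were other normalizations, dim filters, an offset of 16, probe set choices, variance models, a replicate block, leaving out single arrays and a threshold of 0.1.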

Additional observations from a re-analysis of the deposited data

How the results depend on the processing

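Of 17 alternatives, the median difference of the members moved by less than its spread between arrays in all 17, from -0.054 to -0.020 with an array left out. The count of members that passed, 1 as reported, was 2 under quantile normalization, array weights and the replicate block, 3 under cyclic loess and the stricter dim filter (the 70th percentile), 0 without the variance trend (4 at an unadjusted p under 0.05 in limma), 4 at a threshold of 0.1, and 0 to 2 with an array left out; it was 0 without saline 1, saline 2, 2MT 2 or 2MT 3 (6, 7, 5 and 9 at an unadjusted p under 0.05). All of these calls were lower in 2MT. The count over all genes, 488, was 292 without the trend, 768 at 0.1 and 262 to 648 with an array left out, and 298, 276 and 262 without saline 1, 2MT 2 and 2MT 3. The median over all genes went from 0.0033 to -0.0023 under cyclic loess, -0.0033 with no dim filter and 0.0017 to 0.0083 with an array left out. Of single genes, Ndufv2 changed sign under cyclic loess (-0.019), Ndufs8 with array weights (8.9e-04), and both, with Ndufa4l2 (-0.020 to 0.065), when some arrays were left out (-0.040 to 0.075 and -0.048 to 0.047); none of these had passed. The causes were not tested. The labels do not say whether arrays with the same replicate number belong together. Deviations of same-numbered arrays correlated at 0.070, 0.040 and 0.022 over the genes tested, against -0.083 to 0.040 for the other pairs. Saline 3 correlated best with 2MT 2. The replicate block raised the count over all genes to 586, with Ndufs4 passing in limma (adjusted p = 0.039). These values cannot settle whether the arrays are paired.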

Other observations

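Probe sets with several gene symbols lie outside the comparison above. The pair listed for Ndufb4 and Ndufb4b, copies of a distal membrane arm subunit, read 10.37, 10.39 and 10.52 in saline against 10.38, 10.46 and 10.44 in 2MT, and 10.44, 10.47 and 10.58 against 10.45, 10.53 and 10.53. The probe set listed for Ndufs5 and its pseudogene Ndufs5-ps read 8.98, 8.63 and 8.76 against 8.58, 8.61 and 8.68, while the probe set of Ndufs5 alone read 9.84, 9.76 and 9.78 against 9.83, 9.68 and 9.79. None of the 3 passed in limma when probe sets were fitted singly, with adjusted p values of 0.33 for the Ndufs5 pair and 0.96 and 1 for the others.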
